A study of Mus musculus with 6 samples.

Results

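The expression of 9 genes of the cellular response to tonicity was followed in embryonic mouse ureters exposed to lithium chloride (LiCl). The genes were taken by symbol from the 56748 gene identifiers of the count table: the transcription factor gene *Nfat5*, the osmolyte genes *Akr1b3*, *Slc6a6*, *Slc6a12* and *Slc38a2*, the kinase gene *Sgk1*, and the chaperone genes *Hspa4l*, *Hspa1a* and *Hspa1b*. All 9 were found, and all 9 had enough counts to be among the 18188 tested genes.

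NFAT5, also called TonEBP, is a transcription factor with a Rel-type DNA-binding domain that is activated when cells are exposed to hypertonic medium. It binds tonicity-responsive enhancer (TonE) elements and increases transcription of genes whose products accumulate organic osmolytes, such as sorbitol, taurine, betaine and myo-inositol, and of heat shock proteins that protect folding at high ionic strength. In the urinary tract this response is best known from the renal medulla, where cells live in concentrated interstitial fluid, and lithium salts are also known to inhibit the kinase GSK3B and thereby to activate canonical WNT signaling.

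Ureters of wildtype NMRI embryos at E12.5 were explanted on Transwell membranes and kept for 18 h in medium with 15 mM LiCl or with water. Each group had 3 samples, the control carried no other salt in place of LiCl, and the labels do not say how many ureters or embryos a sample holds or whether samples came from separate litters. P-values therefore measure the spread between these samples, and an effect of lithium and an effect of added salt cannot be told apart in this design. RNA was poly-A selected, sequenced as 150 bp paired ends and counted per gene.

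Total counts per sample lay between 28473436 and 31266945. Expression per sample is given as CPM after TMM scaling. A change was called where edgeR's quasi-likelihood test gave an adjusted p under 0.05, with Benjamini-Hochberg adjustment over all tested genes. At this threshold 21.1% of all tested genes were higher and 22.4% were lower after LiCl. With the fold threshold of the study added, which asks for a log2 fold change beyond 1 in size, the shares were 2.74% and 4.59%. Summed markers of ureteric epithelium were 1167 to 1461 CPM in controls and 879 to 916 CPM after LiCl (6 of 8 lower, 1 higher), and those of ureteric mesenchyme were 6004 to 6741 CPM against 4301 to 4770 CPM (5 of 8 lower). None of these defining markers was at 0 in every sample. The largest parts of the mesenchyme sum were *Col1a1* and *Col3a1*, with means of 2612 and 1865 CPM in controls. The mesenchyme markers *Foxf1*, *Ptch1* and *Aldh1a2* were not called. Summed skeletal muscle markers were 7.01 to 9.21 CPM in controls, but 31.9, 7.15 and 66.5 CPM in LiCl replicates 1 to 3, so results are also given without LiCl replicates 1 and 3 where this ended a call. That fit keeps a single LiCl sample, LiCl replicate 2, which is assumed to vary as the controls do. In these bulk samples, fewer cells of a type and less RNA per cell cannot be told apart, and the part that cell composition has in the values given here was not tested.

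Sequences upstream of the start were inspected for 2 motifs, because TonE is the element that NFAT5 binds and the heat shock element (HSE) is the element of HSF1, the main factor of the heat shock genes. RefSeq (GRCm38.p6) windows of 250 bases before the start were matched for 7 of the 9 genes, in 16 windows. *Akr1b3* and *Slc6a6* had no window, so their upstream sequences were not inspected. A TonE was found in 1 of the 16 windows, which was 1 of the 5 windows of *Slc6a12*. This window lay at chr6:121342324-121342573 on the plus strand, with the match beginning at position -75 from the start. It is shown with the TonE match in capitals, since *Slc6a12* is a gene in which TonE elements were first described.
Slc6a12: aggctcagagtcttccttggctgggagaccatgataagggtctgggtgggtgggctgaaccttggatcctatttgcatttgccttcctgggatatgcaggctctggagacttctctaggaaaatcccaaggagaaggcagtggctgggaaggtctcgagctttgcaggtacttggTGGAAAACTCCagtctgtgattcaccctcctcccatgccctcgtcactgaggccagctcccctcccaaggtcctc
Among all 32851 RefSeq windows of this length, 4.31% held a TonE on either strand, and 18.6% held its core TGGAAA, which was in 3 of the 16 windows. The HSE was searched as GAANNTTC or TTCNNGAA, which share the letters GAA with the TonE, so that matches can overlap, and was in 4 of the 16 windows against 12.8% of all windows. Of these 4, 2 were among the 6 windows of *Sgk1*, and the others were those of *Hspa1a* at chr17:34972157-34972406 and *Hspa1b* at chr17:34959239-34959488, both on the minus strand, with the match beginning at position -104. None of the 16 windows held both motifs. Both windows are shown with the HSE match in capitals, to show how alike the genes are.
Hspa1a: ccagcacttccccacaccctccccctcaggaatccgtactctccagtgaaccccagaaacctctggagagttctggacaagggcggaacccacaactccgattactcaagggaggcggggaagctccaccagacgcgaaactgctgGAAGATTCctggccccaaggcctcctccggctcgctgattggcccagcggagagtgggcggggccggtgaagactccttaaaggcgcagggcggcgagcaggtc
Hspa1b: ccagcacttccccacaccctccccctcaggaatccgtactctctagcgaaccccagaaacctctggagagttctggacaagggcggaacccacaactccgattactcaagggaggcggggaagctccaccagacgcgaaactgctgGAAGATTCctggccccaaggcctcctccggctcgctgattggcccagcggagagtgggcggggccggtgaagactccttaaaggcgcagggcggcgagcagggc
The windows of *Hspa1a* and *Hspa1b* were identical at 247 of 250 bases (98.8%). They differed by C44T, T47C and T249G, written with the base of *Hspa1a* first and counted from 1 at the 5′ end of the window. A match of letters is a description of these windows and no evidence of binding. The 16 windows are not independent, since several windows of *Slc6a12* overlap and those of *Hspa1a* and *Hspa1b* are near-identical. Their counts beside the shares of all windows are therefore no measure of enrichment.

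After LiCl, 3 of the 9 genes rose and 3 fell, with 3 not called. The higher genes were *Slc6a6*, *Slc38a2* and *Akr1b3*, and the lower genes were *Nfat5*, *Sgk1* and *Hspa4l*. Among all tested genes, 21.1% were higher, 22.4% lower and 43.5% called in either direction. None of the 9 passed the fold threshold of the study, beside 7.33% of all tested genes. The median log2 fold change of the 9 was -0.03, with a range from -0.50 to 0.61, and that of all tested genes was -0.01. The groups did not overlap in 6 of the 9 genes, beside 54.2% of all tested genes.

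**Figure D1:**
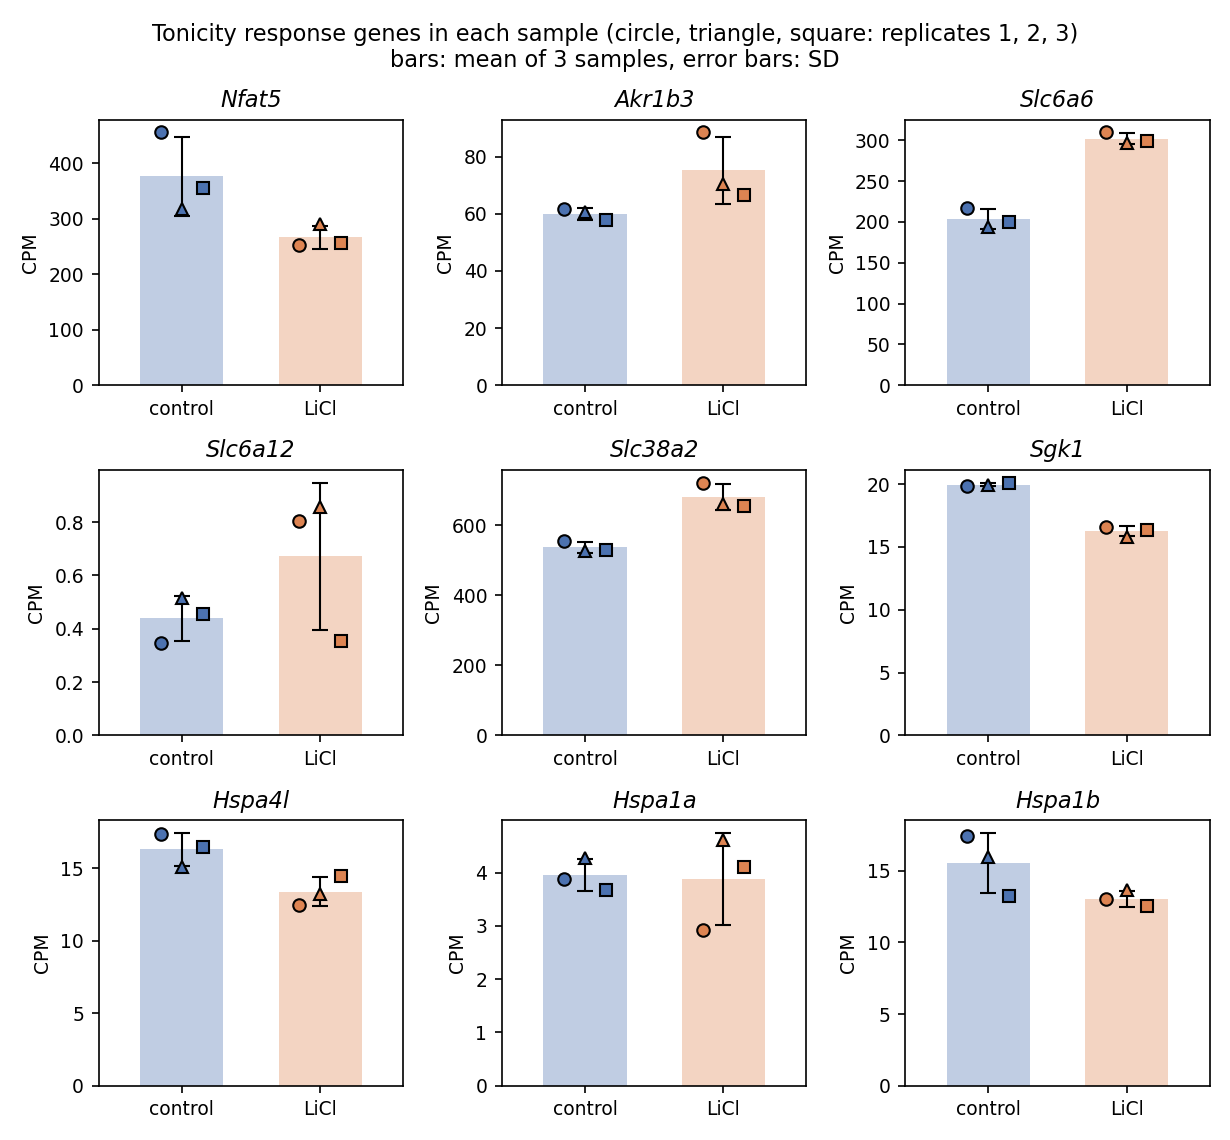
TMM-scaled CPM (vertical axis of each panel, from 0) of the 9 genes in the 3 control and the 3 LiCl samples; points are samples, bars are means and error bars are SD. All LiCl samples lie above all controls for *Akr1b3*, *Slc6a6* and *Slc38a2*, and below all controls for *Nfat5*, *Sgk1* and *Hspa4l*; the groups overlap for *Slc6a12*, *Hspa1a* and *Hspa1b*.

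*Nfat5* (ENSMUSG00000003847), which encodes the transcription factor itself, was measured at 456, 318 and 355 CPM in control replicates 1 to 3 and at 252, 290 and 257 CPM in LiCl replicates 1 to 3. All LiCl samples were below all controls, and control replicate 1 was the highest sample by a wide margin. The mean was 376 ± 71.3 CPM (SD, n = 3) in controls and 266 ± 20.8 CPM (SD, n = 3) after LiCl, a decrease of 29.3%. The fall was called (log2 fold change -0.50, SE 0.12, 95% interval -0.76 to -0.23, adjusted p = 0.00778, edgeR's quasi-likelihood test). Without control replicate 1 the log2 fold change was -0.34, with an adjusted p of 0.0089 in the same test, and without LiCl replicates 1 and 3 it was -0.37, with an adjusted p of 0.149. The call was also lost with limma on unfiltered log2(FPKM + 1) values (log2 fold change -0.44, adjusted p = 0.0610) and with glmTreat, which asks for a log2 fold change beyond 1. The counts rest on a gene model of 18378 bases, the length recovered from the deposited FPKM values, and were between 7238 and 13118 per sample.

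The genes whose profile over the 6 samples was most like that of *Nfat5* were *Mapk10*, *Erbb3*, *Ctnnal1*, *Trp63* and *Mindy2*, with Pearson's r of log2 CPM of 0.998, 0.996, 0.995, 0.993 and 0.993. These r are descriptions over both groups together, so they take up the difference between groups and the high value in control replicate 1. Of the 15443 genes compared, those with a mean of at least 1 CPM, 676 had an r above 0.9. *Mapk10*, a JNK kinase gene, went from a mean of 6.44 to 3.68 CPM, and *Trp63*, the gene of the urothelial basal cell factor P63, from 5.44 to 3.29 CPM.

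*Slc6a6* (ENSMUSG00000030096), the gene of the taurine transporter TauT, was measured at 217, 194 and 200 CPM in controls and at 310, 297 and 299 CPM after LiCl. The 3 LiCl samples lay close together and well above all controls. *Slc6a6* rose by 48.3%, from 204 ± 12.1 to 302 ± 6.84 CPM (SD, n = 3 each), with a log2 fold change of 0.57 (SE 0.05, 95% interval 0.45 to 0.69, adjusted p = 4.3e-05, edgeR's quasi-likelihood test). Leaving out each sample in turn gave log2 fold changes between 0.54 and 0.62.

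*Slc38a2* (ENSMUSG00000022462), the gene of the sodium-coupled neutral amino acid transporter SNAT2, was measured at 556, 527 and 531 CPM in controls and at 723, 662 and 656 CPM after LiCl. SNAT2 carries small neutral amino acids, which cells use as early osmolytes, and also responds to amino acid supply. The groups did not overlap, and LiCl replicate 1 was the highest. *Slc38a2* rose by 26.4%, from 538 ± 15.8 to 680 ± 37.1 CPM (SD, n = 3 each; log2 fold change 0.34, SE 0.05, 95% interval 0.23 to 0.45, adjusted p = 0.000641, edgeR's quasi-likelihood test).

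*Akr1b3* (ENSMUSG00000001642) encodes aldose reductase, which makes sorbitol from glucose. It was measured at 61.7, 60.8 and 57.8 CPM in controls and at 88.6, 70.5 and 66.8 CPM after LiCl. All LiCl samples were above all controls, but LiCl replicate 1 stood apart from the other two. *Akr1b3* rose by 25.3%, from 60.1 ± 2.06 to 75.3 ± 11.7 CPM (SD, n = 3 each; log2 fold change 0.33, SE 0.10, 95% interval 0.11 to 0.54, adjusted p = 0.0224, edgeR's quasi-likelihood test). The log2 fold change was 0.19 without LiCl replicate 1, with an adjusted p of 0.0300 in the same test. The call was lost without control replicate 3 (log2 fold change 0.30, adjusted p = 0.0728, edgeR's quasi-likelihood test) and without LiCl replicates 1 and 3 (0.24, adjusted p = 0.0707). It was also lost with limma on unfiltered log2(FPKM + 1) values (adjusted p = 0.0947) and with glmTreat, which tests against a log2 fold change of 1.

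*Slc6a12* (ENSMUSG00000030109) encodes the betaine and GABA transporter BGT1. It had 10, 16 and 14 counts in controls and 25, 24 and 10 counts after LiCl, at 0.347, 0.515 and 0.456 CPM against 0.804, 0.858 and 0.354 CPM. LiCl replicates 1 and 2 were above all controls, whereas LiCl replicate 3 was within their range. The log2 fold change of 0.61 was not called (SE 0.38, 95% interval -0.25 to 1.47, adjusted p = 0.229, edgeR's quasi-likelihood test). At this depth the interval spans a small decrease and an increase larger than that of any of the other 8 genes. *Slc6a12* was the only one of the 7 genes with windows that held a TonE, in 1 of its 5 windows. All of the others with windows except *Sgk1* had only 1, and *Akr1b3* and *Slc6a6* had none and were not inspected. *Slc6a12* was also the lowest expressed of the 9 on the FPKM scale.

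*Sgk1* (ENSMUSG00000019970), the gene of a kinase induced by glucocorticoids and by cell shrinkage, was measured at 19.9, 19.9 and 20.1 CPM in controls and at 16.6, 15.8 and 16.3 CPM after LiCl. Samples within a group differed little, and all LiCl samples were below all controls. *Sgk1* fell by 18.7%, from 19.96 ± 0.14 to 16.2 ± 0.39 CPM (SD, n = 3 each; log2 fold change -0.30, SE 0.06, 95% interval -0.44 to -0.15, adjusted p = 0.00491, edgeR's quasi-likelihood test). Leaving out each sample in turn gave log2 fold changes between -0.31 and -0.28, and without LiCl replicates 1 and 3 the adjusted p was 0.0559.

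Among the chaperones, *Hspa4l* (ENSMUSG00000025757) encodes an HSP110 family protein also known as osmotic stress protein 94. It was measured at 17.4, 15.1 and 16.5 CPM in controls and at 12.4, 13.3 and 14.5 CPM after LiCl. The highest LiCl sample was just below the lowest control. *Hspa4l* fell by 17.9%, from 16.3 ± 1.15 to 13.4 ± 1.01 CPM (SD, n = 3 each; log2 fold change -0.28, SE 0.09, 95% interval -0.49 to -0.08, adjusted p = 0.0291, edgeR's quasi-likelihood test). This call was the least stable of the 6: it was lost in 12 of 19 alternatives, among them DESeq2 (adjusted p = 0.0617) and the omission of control replicate 1 (adjusted p = 0.0947, edgeR). Without LiCl replicates 1 and 3 the adjusted p of *Hspa4l* was 0.139 by edgeR's test.

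*Hspa1a* (ENSMUSG00000091971) and *Hspa1b* (ENSMUSG00000090877) encode the stress-inducible HSP70. The genes are near-identical copies, so the counting can assign reads of one to the other or drop them. Of the 2818 stretches of 150 bases in the *Hspa1a* transcript (GENCODE M21), 1074 (38.1%) occur unchanged in that of *Hspa1b*. The separate values of both genes are therefore uncertain.

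*Hspa1a* had 112, 133 and 113 counts in controls and 91, 129 and 116 counts after LiCl, at 3.89, 4.28 and 3.68 CPM against 2.93, 4.61 and 4.11 CPM. The groups overlapped, and LiCl samples were both the lowest and the highest of the 6. The log2 fold change of *Hspa1a* was -0.03 (SE 0.18, 95% interval -0.44 to 0.38, adjusted p = 0.912, edgeR's quasi-likelihood test), and its sign depended on single samples. *Hspa1b* had 501, 496 and 407 counts in controls and 405, 381 and 353 counts after LiCl, at 17.4, 16.0 and 13.3 CPM against 13.02, 13.63 and 12.51 CPM. Control replicates 1 and 2 were above all LiCl samples, and control replicate 3 was within their range. The log2 fold change of *Hspa1b* was -0.25 (SE 0.11, 95% interval -0.49 to -0.01, adjusted p = 0.0851, edgeR's quasi-likelihood test) and was not called, but without control replicate 3 it was -0.35, with an adjusted p of 0.0225 in the same test.

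Summing over both copies removes the assignment between them but does not restore any reads that the counting dropped. The sums were 613, 629 and 520 counts in controls and 496, 510 and 469 counts after LiCl. All 3 LiCl sums were below all control sums before scaling for depth; in CPM, the sum was 21.3, 20.2 and 17.0 in controls and 15.9, 18.2 and 16.6 after LiCl, and the groups overlapped. The log2 fold change of the summed counts was -0.20 (SE 0.10, adjusted p = 0.123, edgeR's quasi-likelihood test). *Hspa1a* held 18.3, 21.1 and 21.7% of the sum in controls and 18.3, 25.3 and 24.7% after LiCl.

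**Figure D2:**
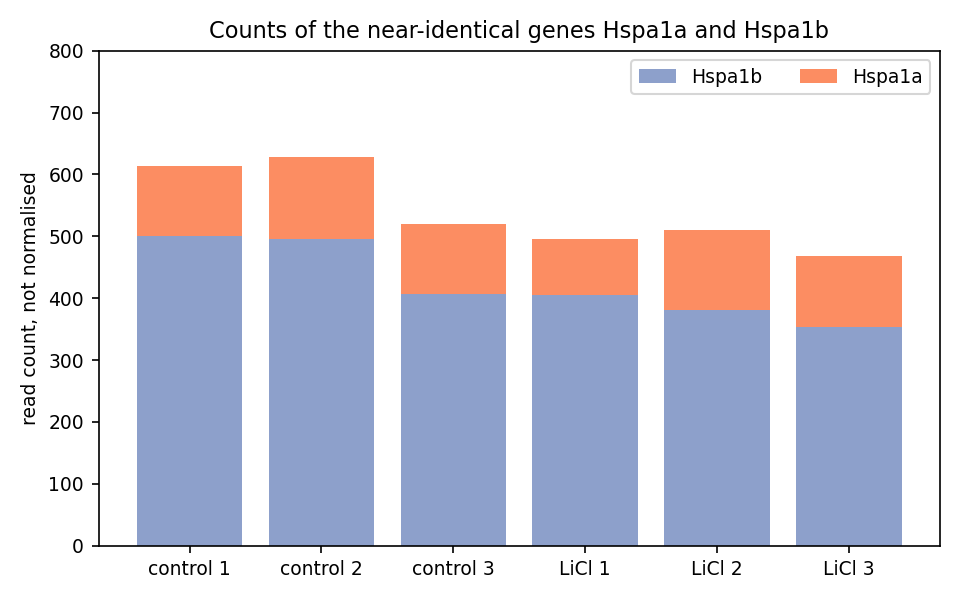
Read counts without normalization (vertical axis, from 0) of *Hspa1b* and *Hspa1a*, stacked, in each of the 6 samples (horizontal axis). *Hspa1b* holds most of the sum in every sample, and the sums run from 520 to 629 in controls and from 469 to 510 after LiCl.

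**Figure D3:**
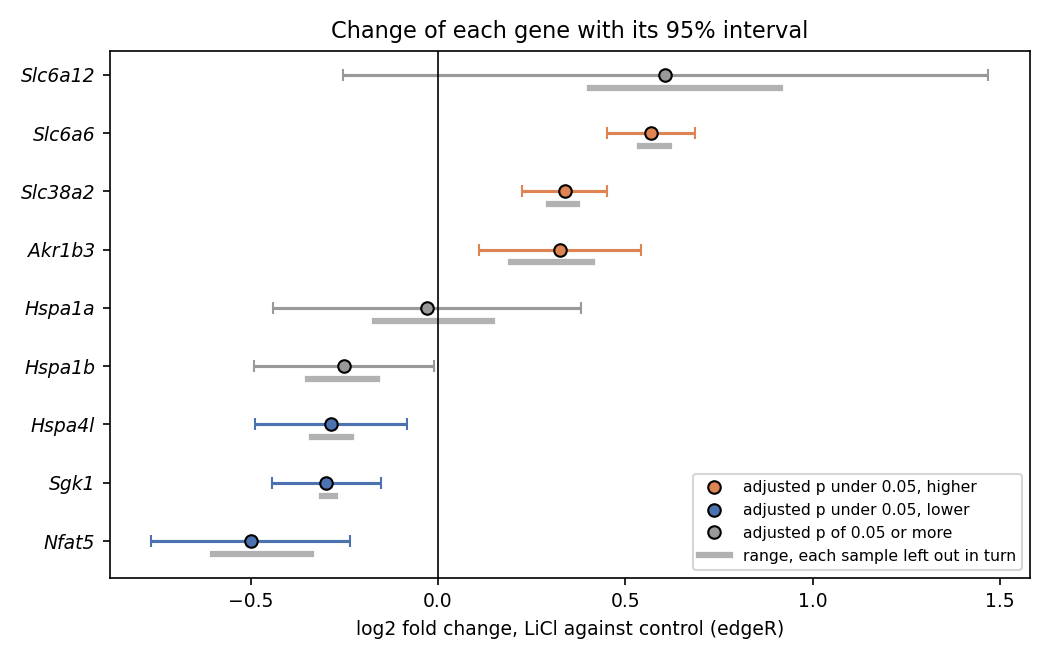
Log2 fold change, LiCl against control (horizontal axis), of the 9 genes by edgeR; points are estimates, thin bars are 95% intervals, grey bars are the range when each sample is left out in turn, and colours mark the call. *Slc6a12* has the highest estimate and the widest interval, and the grey bar of *Hspa1a* crosses 0.

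Levels between genes were compared on the deposited FPKM scale, which divides by the length of the gene model. That length was 8384 bases for *Akr1b3* and 11501 for *Hspa4l*, and the order of levels depends on such lengths. In controls, *Slc38a2* had the highest level at 60.2 FPKM, followed by *Slc6a6* at 23.9 and *Nfat5* at 20.3 FPKM, whose samples overlapped. Lower FPKM levels followed for *Akr1b3* at 7.10, *Hspa1b* at 5.49 and *Sgk1* at 4.03, each without overlap with the next. *Hspa4l* at 1.40 and *Hspa1a* at 1.32 FPKM overlapped, and *Slc6a12* was the lowest at 0.143 FPKM. After LiCl, the order was kept down to *Sgk1*, with 77.1 FPKM for *Slc38a2*, 35.8 for *Slc6a6*, 14.5 for *Nfat5*, 8.995 for *Akr1b3*, 4.66 for *Hspa1b* and 3.32 for *Sgk1*. *Slc6a6* and *Nfat5* no longer overlapped after LiCl, whereas *Hspa1a* at 1.31 and *Hspa4l* at 1.17 FPKM did, and *Slc6a12* was at 0.221 FPKM. The ordering is a description with no test, and the FPKM levels of *Hspa1a* and *Hspa1b* carry the same uncertainty as their counts.

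Beyond the 9 genes, 11 lists of related genes with 130 genes were examined, of which 123 were tested. Of these, 49 were higher and 22 lower after LiCl, and 52 were not called, beside 21.1% and 22.4% of all tested genes. The median log2 fold change was 0.11. Past the fold threshold were 4 higher and 2 lower genes, beside 2.74% and 4.59% of all tested genes. Without LiCl replicates 1 and 3, which leaves a single LiCl sample, fewer list genes were called in either direction. Of the list genes named here, *Nos2*, *Nfatc1*, *Cryab* and *Fosb* were no longer called by edgeR's test. The share of all tested genes called in that fit is not given, so the fall is no result about the lists.

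**Figure D4:**
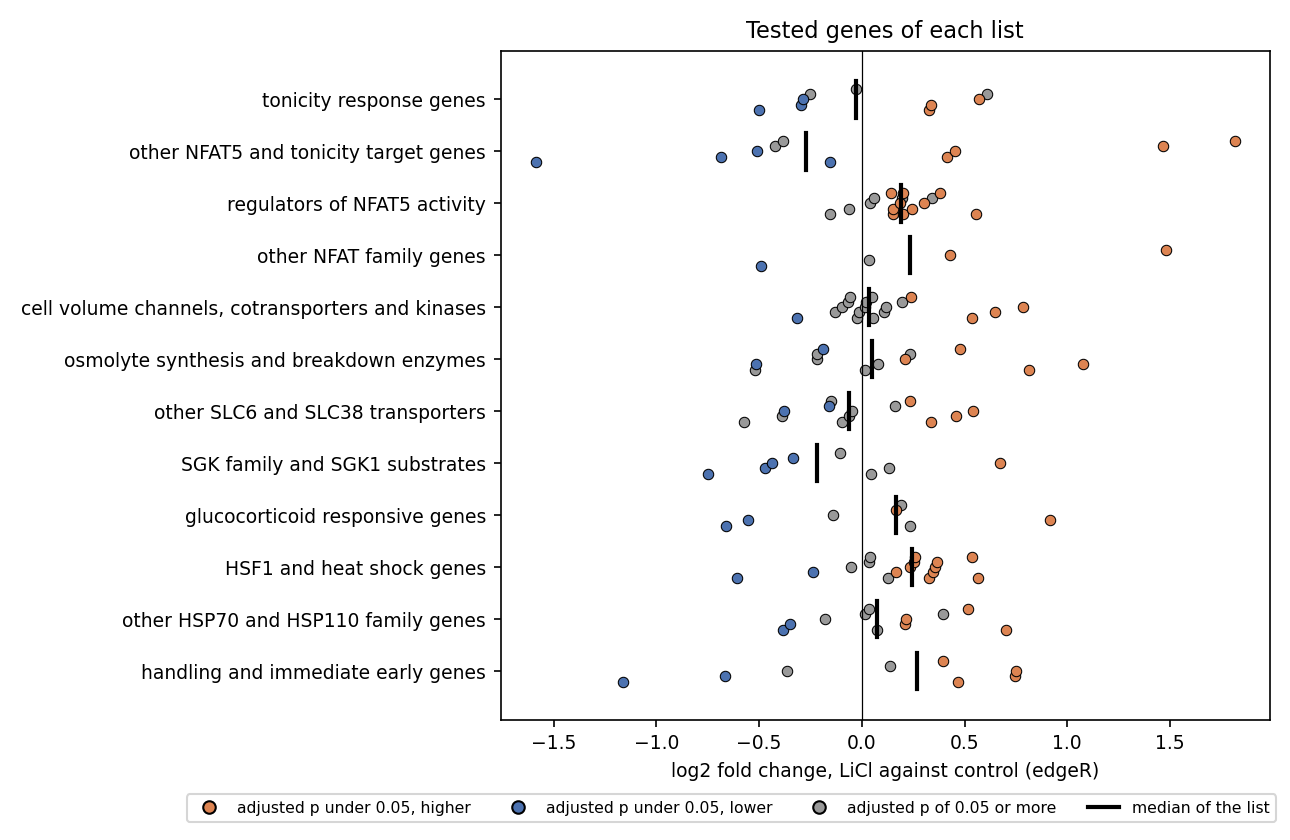
Log2 fold change, LiCl against control by edgeR (horizontal axis), of every tested gene of the 9 tonicity response genes and of the 11 related lists (rows); points are genes coloured by call and black bars are list medians. Of 16 regulator genes of NFAT5 activity, 10 are called higher and none lower, beside 21.1% and 22.4% of all tested genes. The list of other NFAT5 and tonicity target genes spreads from -1.59 to 1.82.

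Of the 12 other NFAT5 and tonicity target genes, 10 were tested, with 4 higher and 4 lower, and the median of their log2 fold changes was -0.27. Among all tested genes, 21.1% were higher and 22.4% lower. The urea transporter gene *Slc14a2* was measured at 2.85, 3.64 and 2.90 CPM in controls and at 13.2, 9.01 and 10.8 CPM after LiCl, so all LiCl samples were far above all controls (log2 fold change 1.82, adjusted p = 4.8e-05, edgeR's quasi-likelihood test). *Ranbp3l*, named for its resemblance to a nuclear export cofactor, was measured at 0.938, 1.13 and 0.782 CPM in controls and at 3.63, 2.36 and 1.88 CPM after LiCl (log2 fold change 1.47, adjusted p = 0.0031, edgeR's quasi-likelihood test). The water channel gene *Aqp1* went the other way, from 36.3, 28.6 and 29.4 CPM to 10.4, 9.41 and 11.6 CPM (log2 fold change -1.59, adjusted p = 9.2e-06, edgeR's quasi-likelihood test). The inducible nitric oxide synthase gene *Nos2* and the small heat shock protein gene *Hspb1* also fell, with log2 fold changes of -0.69 and -0.51. *Aqp2*, the vasopressin-regulated water channel of the collecting duct, and *S100a4* had at most 1 count in any sample and were not tested. Chosen after their values were seen, the myo-inositol transporter gene *Slc5a3* rose from a mean of 41.2 to 56.5 CPM (log2 fold change 0.45, adjusted p = 0.0057, edgeR's quasi-likelihood test), and the creatine transporter gene *Slc6a8* from 77.7 to 104 CPM (log2 fold change 0.41). *Slc5a3* overlaps *Mrps6* on the same strand in the annotation, so its reads are uncertain.

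Among enzymes that make or break down osmolytes, 4 of 12 tested genes were higher and 2 lower, beside 21.1% and 22.4% of all tested genes. The median change of these enzymes was 0.05 on the log2 scale. *Sord*, the gene of sorbitol dehydrogenase, which oxidises the product of aldose reductase to fructose, was measured at 16.1, 16.1 and 16.8 CPM in controls and at 33.5, 32.7 and 37.1 CPM after LiCl. Its groups were far apart, and *Sord* rose by more than *Akr1b3* (log2 fold change 1.08, SE 0.07, adjusted p = 4.5e-06 for *Sord*, edgeR's quasi-likelihood test); the difference between the genes was not tested. *Akr1b8*, an aldo-keto reductase gene related to *Akr1b3*, rose with a log2 fold change of 0.81, and *Aldh7a1*, an aldehyde dehydrogenase gene that can make betaine, fell with a log2 fold change of -0.51. Of 13 tested transporters of the SLC6 and SLC38 families, 4 were higher and 2 lower, beside the same shares of all tested genes. The median change of these transporters was -0.06 on the log2 scale. *Slc38a7*, a glutamine transporter gene, had the log2 fold change 0.54 and *Slc6a15*, the gene of a neutral amino acid transporter, 0.46.

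Of 16 genes for proteins reported to regulate NFAT5 activity, 10 were higher by edgeR and none lower, at a median change of 0.19 on the log2 scale. Among all tested genes, 21.1% were higher and 22.4% lower. By mean CPM, the 16 genes ranked from the 65.7th to the 99.2nd percentile of all tested genes. At an unadjusted p under 0.05, 0 of the 16 were lower by edgeR and 0 by DESeq2. *Spag9* was just short of it (log2 fold change -0.16, unadjusted p = 0.0537, edgeR's quasi-likelihood test). The share of all tested genes at that threshold is not given, so these counts are no result about the 16 genes. The largest changes were those of *Akap13*, the gene of the guanine nucleotide exchange factor Brx (0.55), and of the kinase gene *Fyn* (0.38). *Akap13* was measured at 201, 138 and 178 CPM in controls and at 200, 294 and 264 CPM after LiCl, so its groups overlapped although it was called (adjusted p = 0.018, edgeR's quasi-likelihood test). The omission of single samples gave *Akap13* an adjusted p of up to 0.0541. Of the calcium-regulated NFAT genes, *Nfatc2* rose from a mean of 7.51 to 20.9 CPM (log2 fold change 1.48, adjusted p = 1.4e-05, edgeR's quasi-likelihood test) and *Nfatc1* rose by a log2 fold change of 0.43, whereas *Nfatc4* fell by 0.49 on the log2 scale.

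Of 18 cell volume channels, cotransporters and kinases, 4 were higher, 1 lower and 13 not called, at a median change of 0.03 on the log2 scale. Among all tested genes, 21.1% were higher and 22.4% lower. *Slc12a7*, the gene of the potassium chloride cotransporter KCC4, rose from a mean of 71.7 to 124 CPM (log2 fold change 0.78) and *Lrrc8b*, a subunit gene of the volume-regulated anion channel, from 64.1 to 100.4 CPM (0.65).

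In the list of SGK family genes and SGK1 substrates, 1 of 8 was higher and 4 were lower, at a median change of -0.22 on the log2 scale. Among all tested genes, 21.1% were higher and 22.4% lower. *Ndrg1*, whose protein SGK1 phosphorylates, fell with a log2 fold change of -0.75, and the forkhead factor gene *Foxo1* rose with 0.67. Since *Sgk1* is induced by glucocorticoids, 7 genes of that response were listed. Of these 7, 2 were higher and 2 lower (median 0.16), beside the same shares of all tested genes. *Tsc22d3*, the gene of the glucocorticoid-induced leucine zipper, rose from a mean of 88.7 to 167 CPM (log2 fold change 0.92), and *Klf9*, a Krüppel-like factor gene, fell with a log2 fold change of -0.66.

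Of 16 HSF1 and heat shock genes, 10 were higher and 2 lower, at a median change of 0.24 on the log2 scale. Among all tested genes, 21.1% were higher and 22.4% lower. The cochaperone gene *Stip1* rose from a mean of 181 to 269 CPM (log2 fold change 0.57), while *Cryab*, the gene of the small heat shock protein alpha B-crystallin, fell with a log2 fold change of -0.61. Of 11 other HSP70 and HSP110 genes, 4 were higher and 2 lower, with a median of 0.07, beside the same shares of all tested genes. *Hspa9*, the gene of mitochondrial HSP70, was measured at 303, 300.5 and 286 CPM in controls and at 484, 462 and 500.3 CPM after LiCl (log2 fold change 0.70), and *Hspa12a* rose with a log2 fold change of 0.51. *Hspa4l* was the only one of the 3 chaperone genes studied here that was called, and it was lower.

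Early response genes were listed because handling of tissue can induce them along with *Hspa1a* and *Hspa1b*. Of 8 such genes, 4 were higher and 2 lower, beside 21.1% and 22.4% of all tested genes. Their median change was 0.27 on the log2 scale, and their summed level was 254 to 274 CPM in controls and 276 to 291 CPM after LiCl. *Egr1* was measured at 62.0, 55.1 and 50.7 CPM in controls and at 23.6, 23.0 and 28.4 CPM after LiCl (log2 fold change -1.16), while *Fos* and *Fosb* rose with log2 fold changes of 0.74 and 0.75. The call of *Fosb*, which had 31 to 88 counts per sample, was lost in 8 of 17 alternatives. The part of these genes in the values of *Hspa1a* and *Hspa1b* was not tested.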

How the data were processed

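Gene counts and FPKM were used for 3 LiCl and 3 control samples. The authors deposited raw counts per Ensembl gene, without normalization, and FPKM values per sample, both on GRCm39. Per the paper, reads were aligned with HISAT2 and counted with featureCounts. The submitters' processing notes list fastp 0.23, STAR 2.7, featureCounts 2.0 and DESeq2 1.40, so the aligner is stated in both ways. The annotation release and the strand setting of the counting are not given in the sources used here. The deposited FPKM equalled count divided by DESeq2's size factor and a whole-number length (within 0.01 bases) in 100% of the values of 13480 genes, so FPKM is not an independent measurement.

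The test of the counts was the quasi-likelihood test of edgeR 4.0.16 (R 4.3.3), run on TMM-scaled libraries after removing low genes with filterByExpr, and p-values were adjusted by Benjamini-Hochberg. Symbols came from GENCODE M21 for GRCm38, matched by identifier for 52073 of 56748 genes. The 9 genes and all lists were chosen with earlier results of these data known. From each list, the genes past the fold threshold and up to 2 others with the largest log2 fold change at an adjusted p under 0.05 and a mean of at least 1 CPM were named. With 3 samples against 3, an exact permutation test cannot go below p = 0.1, so single values have no such test. Samples of one group differed by 5.93 to 14.5 chi-square units per degree of freedom, so none was a copy of another. Alternatives used DESeq2 1.42.0, limma 3.58.1, glmTreat, other scalings and filters, the replicate number as a block, the omission of each sample, and, added after seeing the data, a gene length offset and the omission of LiCl replicates 1 and 3. The scripts were tested on simulated data of 18188 genes for the LiCl comparison, in which 100% of 200 altered genes were recovered with 15 false calls. The altered genes were given larger changes than any of the 9 genes showed, and were drawn from genes with more counts than *Slc6a12*. Recovery of changes as small as those of the 9 genes was not tested.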

Additional observations from a re-analysis of the deposited data

How the results depend on the processing

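Of 168 values of the 9 genes under alternatives, 140 kept direction and side of the threshold, 23 lost the call (6 of them with glmTreat, which tests against a log2 fold change of 1), 1 gained it and 4 reversed. The reversed values were those of *Hspa1a*, with log2 fold changes of 0.023 with the gene length offset, 0.23 without LiCl replicates 1 and 3, and -0.17 to 0.14 with each sample left out in turn (0.04 without control replicate 2 and 0.14 without LiCl replicate 1). The count of higher genes among the 9 was 0 with glmTreat and 2 to 3 with each sample left out. The count of lower genes was 1 with limma on log2(FPKM + 1) without filter, 0 with glmTreat, 0 by edgeR without LiCl replicates 1 and 3 (2 at an unadjusted p under 0.05), and 2 to 3 with each sample left out. In the related lists, glmTreat called 2 higher and 1 lower, and the omission of LiCl replicates 1 and 3 left 31 higher and 11 lower. Leaving out each sample gave 38 to 49 higher and 18 to 24 lower. Past the fold threshold, limma on log2(FPKM + 1) called 0 higher with and 0 without the filter, and glmTreat 2 higher and 1 lower. The cause of these differences was not tested. For these alternatives, no share of all tested genes called in the same fit is given. A change in these counts is therefore no result about the 9 genes or the lists. By design, glmTreat asks for a larger change (0 of the 9 genes also at an unadjusted p under 0.05). The omission of LiCl replicates 1 and 3 leaves fewer samples and also removes those with the higher skeletal muscle markers, and these cannot be told apart.

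Replicate numbers are shared by both groups, and deviations of same-numbered samples correlated at 0.02, -0.14 and 0.13. With 3 samples per group, these values cannot show whether same-numbered samples shared a litter or a day. With the replicate number as a block, 3 of the 9 genes were higher and 2 lower (*Hspa4l*, adjusted p = 0.0521 by edgeR), and 42 and 20 genes of the lists. The share of all tested genes with the block is not given. Scalings moved the median of all genes by less than 0.1. The 10 to 25 counts of *Slc6a12* limit its precision, and the near-identity of *Hspa1a* and *Hspa1b* limits theirs.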
